A study of Drosophila melanogaster with 10 samples.

Results

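Embryos of the Dmp53NS strain, a mutant of the Drosophila melanogaster p53 gene, were compared with and without 40 Gy of gamma radiation. The comparison rests on 4 of the 10 arrays of the series: 2 of control and 2 of irradiated mutant embryos, paired as set 1 and set 2 by the replicate number of the labels. All embryos were laid within 2.5 h, aged for 2.5 h at 25 °C, and given a recovery of 1.5 h after irradiation or mock handling. RNA came from about 1 gram of pooled whole embryos per collection, and each array holds 1 collection. The p-values thus measure only the spread of the change between pairs of control and irradiated collections. That spread also holds differences of hybridization day and, among wild-type pairs, of strain. The other 6 arrays were wild type (WT): 1 control and irradiated set of the yw strain and 2 of the w1118 strain, handled on the same schedule. The labels give the mutant only by its strain name; the sources used here do not give which bases of p53 the allele changes or what else its background carries. In pooled whole embryos, fewer cells of a type and less RNA per cell cannot be told apart.

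p53 is a transcription factor that, in irradiated fly embryos, switches on genes that remove or mend damaged cells. Its targets in the fly include antagonists of the caspase inhibitors, a tumour necrosis factor ligand and proteins that hold broken DNA ends. At the age sampled, embryos are also passing from RNA loaded by the mother to RNA of their own genome, and neurons, muscle and epidermis are being laid out, so that the stage of a collection shows in many transcripts. Mutant embryos show which parts of the radiation response appear when p53 is defective.

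Signals below are in the arbitrary units deposited, and each change is irradiated minus control on the scale log2(signal + 14.5), which understates the change of dim probe sets. A probe set is the group of array probes for 1 transcript. Of 13966 probe sets that were not array controls, 8379 had a mean signal above 53.4 over the 10 arrays and were tested. Changes were tested with limma, with each pair as a block, and p-values were adjusted over all 8379. By the array run records, both mutant arrays of set 1 were hybridized on the second of the study's 3 hybridization days and both of set 2 on the third, each beside 1 w1118 set. For eIF-4a, a control transcript probed at both ends, the 3′ end read higher than the 5′ end by a ratio that grows as RNA is cut short. This ratio was 2.11 and 2.14 on the control and irradiated array of set 1. It was 5.92 and 3.13 on those of set 2. Set 2 thus had the higher ratios, and within set 2 the control array had the higher one. The w1118 set of the same day had 2.92 on its control and 12.2 on its irradiated array, the highest ratio of the 10 arrays, which enters every value given for the second w1118 set. Median signal was 67.8 and 85.0 in set 1 and 69.2 and 63.3 in set 2. The part of these differences in the results below was not tested. As a check of the labelled stage, 22 of 24 blastoderm genes and 22 of 22 genes of later patterning and neurogenesis were bright enough to test. So were 21 of 32 maternal transcripts, 8 of 17 late differentiation genes and 7 of 14 genes of the adult ovary and chorion. Over all probe sets 8379 of 13966 were, so the last 3 lists were not far from that share.

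No transcript passed the test for a response to radiation in mutant embryos. Limma called 0 of 8379 probe sets (0%) over the mean of both sets, and also 0 for set 1 alone and 0 for set 2 alone. At an unadjusted p under 0.05 there were 134 probe sets (1.6%) for the mean, 83 higher (0.991%) and 51 lower (0.609%). For set 1 alone there were 366 (4.37%), of which 263 were higher (3.14%) and 103 lower (1.23%), and for set 2 alone 250 (2.98%), of which 104 were higher (1.24%) and 146 lower (1.74%). About 419 would fall under that p if nothing changed. Each set alone is 1 control and 1 irradiated collection, and its test borrows the spread of the WT sets. The test of the mean shares the spread of the WT arrays as well, and it called 3 probe sets when the yw set was left out.

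The 2 sets ran in opposite directions for most probe sets, so that their mean cancels. The direction was shared by 2787 probe sets (33.3%; 1592 or 19% higher in both and 1195 or 14.3% lower in both), while 5592 (66.7%) differed in it. Those higher in set 1 and lower in set 2 numbered 3361 (40.1%) and those lower in set 1 and higher in set 2 numbered 2231 (26.6%). The changes of the sets correlated at -0.29 across the 8379 probe sets, and at -0.45 across the 5586 with a mean signal above 143. The w1118 sets of the same days correlated at 0.09 over all and at 0.16 over the brighter probe sets, with 52.1% in the same direction. The points of these correlations share arrays, and probe sets are not independent replicates. Past 1 log2 in set 1 there were 355 probe sets higher and 185 lower, and in set 2 188 higher and 214 lower. Past it in both sets there were 18 higher (0.215%), 16 lower (0.191%), 32 higher in set 1 and lower in set 2 (0.382%) and 15 the reverse (0.179%). The difference between the sets was tested directly: no probe set passed in limma (0 of 8379, 0%). An unadjusted p under 0.05 was reached by 644 (7.69%), of which 365 (4.36%) were lower in set 2 than in set 1 and 279 (3.33%) higher.

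**Figure D1:**
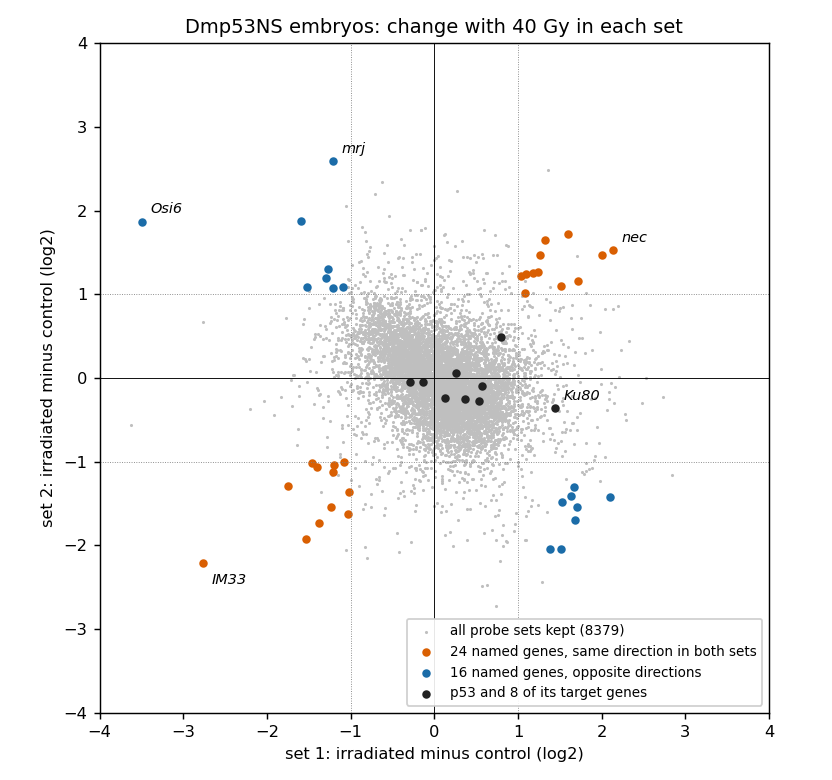
Change with 40 Gy in set 1 (horizontal axis) against set 2 (vertical axis), both as log2 differences of irradiated minus control, for the 8379 probe sets tested (grey) and the named genes (coloured). Dotted lines mark 1 log2. The cloud slopes from upper left to lower right (correlation -0.29), and the p53 targets other than Ku80 lie within 1 log2 of no change in both sets.

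The genes that p53 is known to switch on after radiation did not pass the test in mutant embryos: 0 of the 8 measured targets did. Of these 2 were higher in both sets and 2 lower in both, beside 19% and 14.3% of all probe sets. Another 4 were higher in set 1 and lower in set 2 (50%, beside 40.1% of all). The median change of the 8 targets was 0.45 in set 1 and -0.07 in set 2, beside 0.12 and -0.05 over all probe sets. In the w1118 sets of the same days it was 1.26 and 1.17. With quantile normalization the target medians were 0.31 and -0.08. For 5 of the 8 (skl, Corp, egr, mre11 and RnrL) the change was lower than in WT at an unadjusted p under 0.05 in limma. The share over all probe sets was 1.68%, and 0 of the 8 passed after adjustment. The list of targets was chosen with results of these data known, so neither its rise in WT nor this count is independent evidence. In WT embryos limma called 20 probe sets (0.239%), all 20 higher after irradiation.

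For skl, which encodes an antagonist of the caspase inhibitor Diap1, the signal was 73.0 in the control and 90.4 in the irradiated array of set 1, and 10 and 11.1 in set 2. Set 1 was high and set 2 low whether or not embryos were irradiated, and the groups overlapped. Its change was 0.16 (SE 0.55, 95% interval -0.99 to 1.31), against 3.14 in WT; the difference of -2.97 between genotypes did not pass (limma adjusted p = 0.361), but did without the second w1118 set (-3.82, adjusted p = 0.00747). The tumour necrosis factor gene egr had signals of 132 and 119 in set 1 and 112 and 107 in set 2. All 4 arrays were close together, with both irradiated ones below their own control (-0.09, SE 0.38). The change of egr in WT was 1.62, and the difference of -1.71 did not pass (limma adjusted p = 0.748). Corp, a target that restrains p53, went from 307 to 402 in set 1 and from 468 to 391.8 in set 2. Its irradiated arrays lay between the controls, and the change of 0.06 (SE 0.29) was 2.00 below that of WT (adjusted p = 0.0839; 0.0140 with a stricter filter on dim probe sets and 0.00747 without the second w1118 set, where it passed). Dark, the scaffold of the apoptosome, went from 102 to 155 and from 156 to 126, with opposite signs in the sets (0.54 and -0.27).

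Among the targets that mend DNA, the Ku genes had the largest mean changes by value. Ku80 went from 34.4 to 118 in set 1 and from 78.8 to 58.1 in set 2, changes of 1.44 and -0.36. Only the irradiated array of set 1 stood above both controls; the set difference of -1.80 had an unadjusted p of 0.0323 and an adjusted p of 0.642. Irbp, which encodes the Ku70 partner of Ku80, went from 60.2 to 116 and from 65.2 to 97.3. Both irradiated arrays lay above both controls, as did those of 769 probe sets in all (9.18%). Its change was 0.64 (SE 0.41, 95% interval -0.20 to 1.49), against 0.92 in WT. The interval therefore holds both no change and the WT value. The nuclease gene mre11 had signals of 333 and 268 in set 1 and 276 and 268 in set 2, both sets being lower after irradiation by a small amount (-0.17, SE 0.32). RnrL, the large subunit of ribonucleotide reductase, went from 630 to 945 and from 888 to 827, opposite signs again (0.57 and -0.10). Its change in WT was 1.13, and the difference of -0.90 did not pass (limma adjusted p = 0.9998). The p53 probe set itself gave 194 and 213 in set 1 and 125 and 104 in set 2; its place relative to the mutated bases is not known here, so it checks nothing about the genotype.

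**Figure D2:**
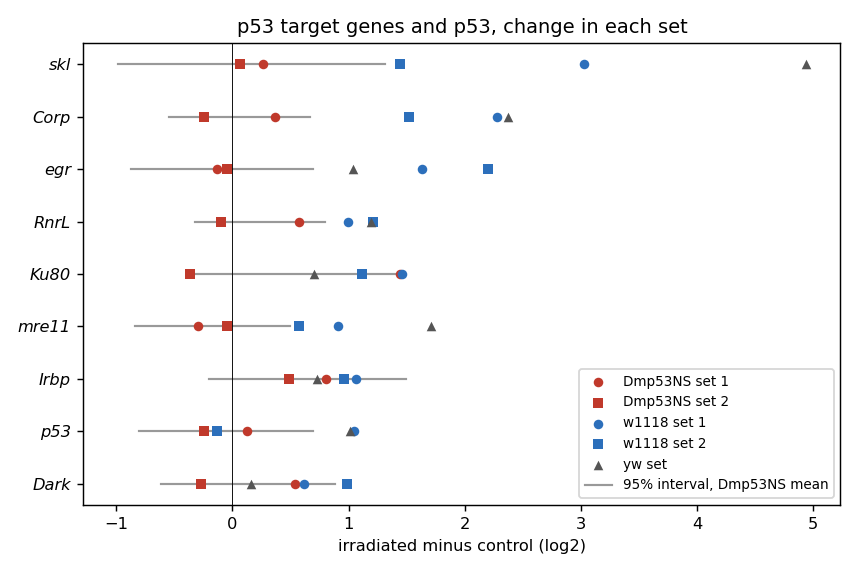
Change with 40 Gy (log2, horizontal axis) of p53 and its 8 measured target genes in each set: Dmp53NS in red, w1118 in blue, yw as grey triangles; grey lines are the 95% intervals of the Dmp53NS mean. For skl, Corp, egr, mre11 and RnrL all 3 WT points lie right of both Dmp53NS points. For Irbp, Ku80, Dark and p53 the genotypes overlap.

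Other genes of the damage response were examined as whole lists, and no member of any passed. Double-strand break repair (12 genes) had medians of 0.25 and -0.27, the former -0.00 with quantile normalization. Of the 12, 7 were higher in set 1 and lower in set 2 (58.3%, beside 40.1% of all probe sets). With quantile normalization 4 of the 12 were, and 2 had the reverse. mus81, a nuclease subunit that cuts joined DNA, ran against the list (282 to 164 and 199 to 373). Other DNA repair (15 genes) had medians of 0.08 (-0.03 with quantile normalization) and -0.09. Checkpoint and nucleotide supply genes (13) had 0.17 and -0.11. The apoptosis effectors (8) had 0.09 and -0.02, and both signs turned with quantile normalization (-0.16 and 0.01). Dredd, a caspase of the immune and death pathways, was the effector with an unadjusted p under 0.05. Its signal went from 50 to 162 in set 1 and from 88.3 to 139 in set 2, so that both irradiated arrays lay above both controls (1.01, SE 0.39, adjusted p = 0.9998). Dronc, the initiator caspase, went from 565 to 316 and from 360 to 681, opposite ways. Of the genes of iron-sulphur clusters and copper (5, medians 0.33 and 0.12, against 1.13 and 1.35 in w1118), Cox17, a copper chaperone of mitochondria, went from 83.6 to 234 and from 172 to 232. Its irradiated arrays were the 2 highest (0.87, SE 0.33, adjusted p = 0.9998). IscU, the cluster scaffold, went from 266 to 337 and from 565 to 458.

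The genes with the largest change common to both sets were dim. A direction was shared by 1642 of the 5586 probe sets with a mean signal above 143 (29.4%), beside 33.3% of all 8379. The 12 with the largest increase common to both sets, ranked by the smaller of the 2 changes, had mean signals of 55.5 to 99.5, and the 12 with the largest common decrease 66.9 to 121. All 24 read under 50 on at least 1 mutant array, against 1721 of the 8379. They were chosen by these changes, so their folds describe them and support nothing. An unadjusted p under 0.05 was reached by 11 of the 12 higher and 12 of the 12 lower genes, and 0 of the 24 passed after adjustment. The smaller change ran from 1.02 to 1.60 among the 12 higher and from 1.01 to 2.22 in size among the 12 lower. Next outside the choice were Fife (1.82 and 1.01) and CG30412 (-0.998 and -1.22).

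Of the higher genes, nec, which encodes a serpin that restrains the Toll immune pathway, had the widest change in set 1. Its signal went from 21.4 to 144 in set 1 and from 23.4 to 94.9 in set 2 (1.84, SE 0.55). Both irradiated arrays lay far above both controls, while the 6 WT arrays spanned 26.6 to 116, with the highest value in a w1118 control. CG9649 went from 24.7 to 104 and from 16.9 to 89.1 (1.66, SE 0.54). Traf4, an adaptor of JNK signalling, went from 5.0 to 63.5 and from 13.2 to 62.5 by 1 probe set. The brighter Traf4 probe set, with a mean signal of 1405, did not follow it: it went from 877 to 1158 and from 1595 to 1069. The same held for CG7049 (25 to 84 and 6.3 to 50.7 by the dim probe set, 286 to 265 and 325 to 327 by the brighter one) and for Bdp1, a subunit of an RNA polymerase III initiation factor (33.7 to 88.1 and 12.7 to 50, against 135 to 169 and 157 to 103). For gnu, an activator of the PAN GU kinase of egg activation, both probe sets were higher in both sets: 34.7 to 104 and 19.1 to 78.7 by the first, 32.0 to 68.4 and 64.1 to 85.1 by the second. For svp, an orphan nuclear receptor of the nervous system and heart, the second probe set was higher in set 1 (118 to 242) and level in set 2 (95.6 to 99.3). The remaining higher genes were CG1801, form3, Uros2, CG1273 and CG9743, with mean changes of 1.05 to 1.44.

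Of the lower genes, IM33, named as an immune-induced molecule, stood apart. Its signal went from 126 to 6.1 in set 1 and from 105 to 11.2 in set 2, changes of -2.77 and -2.22 (mean -2.49, SE 0.59, adjusted p = 0.9998). Both controls were high and both irradiated arrays near the bottom of the scale, with no overlap; 458 probe sets (5.47%) had both irradiated arrays below both controls. IM33 passed when the yw set was left out (adjusted p = 0.00117) and when mutant arrays were fitted alone (0.0111). In WT it went from 91.8 to 24.5 and from 88.9 to 134 in w1118 and from 22.6 to 77.3 in yw. WT arrays thus spanned 22.6 to 134 with no common direction, and the difference between genotypes did not pass (-2.62, adjusted p = 0.784). Hsp26, a small heat shock protein, went from 88.6 to 22.9 and from 378 to 179 (-1.24, SE 0.48), and the groups overlapped because set 2 was brighter. Mlc1, a light chain of muscle myosin, went from 112 to 47.8 and from 74.0 to 19.9 (-1.19, SE 0.48). Mlc2, the other light chain and a member of the list of late differentiation genes, went from 512 to 254 and from 300 to 191 (-0.79, SE 0.34). Both irradiated arrays were below both controls for each light chain. The other lower genes were the gustatory receptor gene Gr8a (-1.73), the neuropeptide precursor gene Nplp3 (-1.56), CG33272 (-1.52), CG18304 (-1.39), the mucin gene Muc55B (-1.33), the ciliary gene B9d1 (-1.23), CG11398 (-1.17), CG30195 (-1.12) and the calpain gene CalpC (-1.05).

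**Figure D3:**
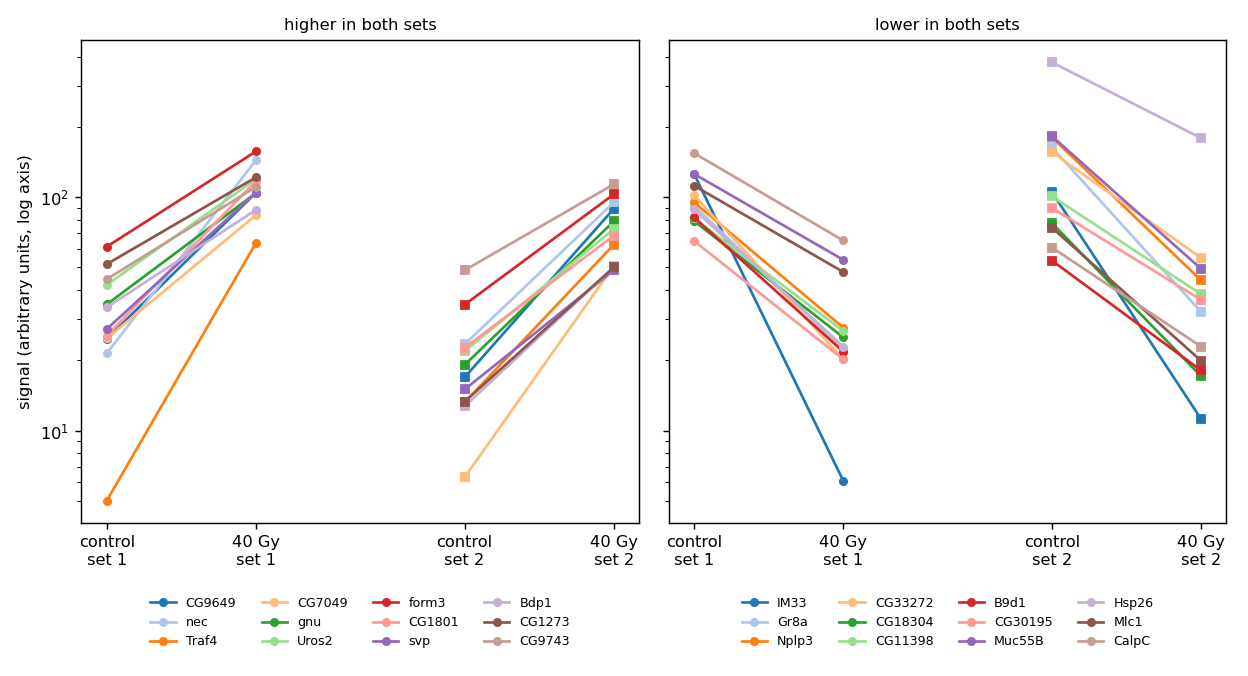
Signal (arbitrary units, log axis) on the 4 Dmp53NS arrays of the 12 genes highest in both sets (left panel) and the 12 lowest in both (right panel) after irradiation; lines join the control and irradiated array of a set. The higher genes start at 61.3 or less on every control array, and IM33 ends at 6.1 and 11.2.

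Bright probe sets with a large change in both sets mostly moved against each other: of those with a mean signal above 143, 9 were past 1 log2 lower in set 1 and higher in set 2, 2 were lower in both, and 0 were higher in both. Of the 8 genes ranked highest for a decrease in set 1 and an increase in set 2, 6 had a mean signal above 143, and of the 8 ranked for the reverse 0 did. Over all probe sets tested, 5586 of 8379 did. These were chosen by their changes as well, and none of the 16 differences between sets passed in limma (adjusted p = 0.642 or higher). mrj, a DnaJ co-chaperone, went from 1207 to 512 in set 1 and from 219 to 1396 in set 2 (-1.22 and 2.59; set difference 3.81, SE 0.95). The control of set 1 and the irradiated array of set 2 were high, and the other pair low. corolla, a protein of the synaptonemal complex that joins meiotic chromosomes, went from 1243 to 504 and from 385 to 968 (-1.28 and 1.30). twe, the Cdc25 phosphatase of meiosis, did likewise, from 1225 to 568 and from 374 to 810 (-1.09 and 1.08). Both are transcripts of the egg, and WT arrays of either treatment read 17.1 to 37.5 for corolla and 64.9 to 148 for twe, below all 4 mutant arrays. ftz-f1, a nuclear receptor supplied by the mother as the partner of Ftz, went from 504 to 209 and from 190 to 419. Osi6, of the Osiris family of secreted and membrane proteins, went from 622 to 41.9 and from 42.0 to 192 (set difference 5.37, SE 1.29). Tlk, a chromatin kinase, went from 1116 to 380 and from 25.0 to 69.3, and of its other probe sets 1 followed it (521 to 284 and 108 to 162) and 1 did not (132 to 138 and 58.6 to 52.8). CG8028 (-1.60 and 1.88) and SCAP, which escorts the lipid regulator SREBP (-1.29 and 1.199), were dim. Burs was next outside the choice (-1.50 and 1.03).

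The genes higher in set 1 and lower in set 2 had mean signals of 59.9 to 130. betaTub97EF, a tubulin isotype, went from 15.2 to 80.8 and from 162 to 39.8. SLO2, a potassium channel, went from 19.3 to 81.8 and from 167 to 29.3 (set difference -3.56, SE 0.80). CG32432 went from 27.9 to 167 and from 93.0 to 25.6. In each of the 3 the control was the low array of set 1 and the high array of set 2. wat, a fatty acyl reductase of the airways, Septin4, hoe2, Rcd6 and CG9098 had changes of 1.38 to 1.71 in set 1 and -1.30 to -2.04 in set 2. gas was next outside (1.28 and -2.44).

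**Figure D4:**
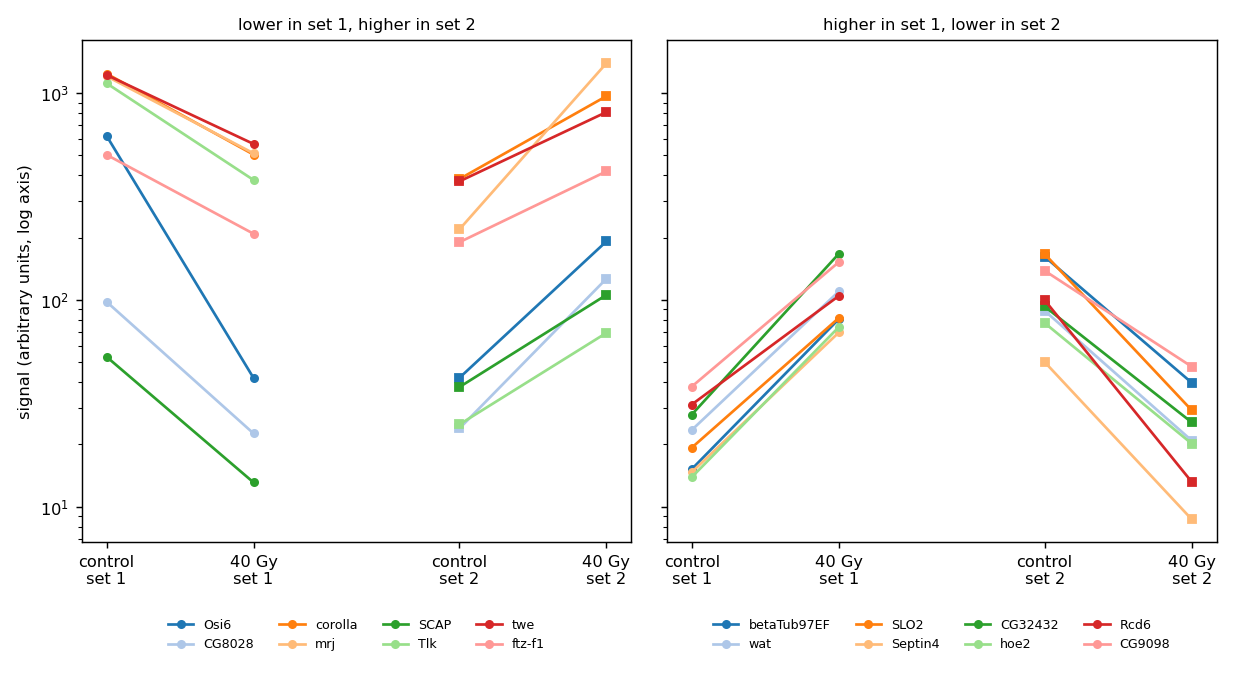
Signal (arbitrary units, log axis) on the 4 Dmp53NS arrays of the 8 genes lower in set 1 and higher in set 2 (left panel) and of the 8 with the reverse (right panel); lines join the control and irradiated array of a set. Lines of the left panel slope down in set 1 and up in set 2, led by corolla, mrj, Tlk and twe at 1116 to 1243 on the control of set 1.

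The lists of maternal transcripts and of embryonic patterning genes are described by their counts and medians, with no test of a list. The genes given for the lists from here on were picked after their values were seen, unless the naming rule took them. So were mus81, Dronc and IscU above, which the rule did not take. Of 21 measured maternal transcripts 14 were lower in set 1 and higher in set 2 (66.7% of the list, against 26.6% of all probe sets), with medians of -0.49 and 0.32. These 14 were bcd, pum, smg, tor, swa, grk, plu, BicD, aub, Tl, ea, osk, snk and brat. bcd, the anterior determinant, went from 1641 to 753 and from 938 to 1382 (-1.11 and 0.55; set difference 1.66, adjusted p = 0.642). smg, which clears maternal RNA, went from 5845 to 3684 and from 1242 to 2226. tor, the terminal receptor, went from 792 to 406 and from 336 to 481. For bcd, smg and tor the control of set 1 was the highest of the 4 arrays, and the groups overlapped. The exceptions included tsl, the cue for tor, from 43.8 to 86.3 and from 97.4 to 10, and hb, which is also made by the embryo. The mean log2 level of the list was 8.91 and 8.54 in set 1 and 8.38 and 8.56 in set 2, against 7.18 to 7.91 on the 6 WT arrays, so that all 4 mutant arrays were higher. In w1118 the list's medians were 0.06 and 0.17.

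Of 22 genes of later patterning and neurogenesis 17 were higher in set 1 and lower in set 2 (77.3%, against 40.1% of all), with medians of 0.26 and -0.60. wor, a Snail family factor of neural stem cells, went from 493 to 735 and from 409 to 240. nub, a POU factor, went from 669 to 948 and from 514 to 319, and E(spl)m4-BFM, a Notch target, from 3599 to 4487 and from 5434 to 3200. mira, which carries fate determinants in dividing neuroblasts, went from 1733 to 2112 and from 2000 to 1366. For these 4 the set difference had an unadjusted p of 0.0145 to 0.0473. Of 22 blastoderm genes 14 had the same pattern (63.6%; medians 0.30 and -0.31). The gap genes gt (294 to 301 and 418 to 139 by 1 probe set, 272 to 363 and 235 to 124 by the other) and Kr (760 to 876 and 321 to 153) had their larger change in set 2, where both were lower. slam, a gene of cell membrane growth at the blastoderm, ran the other way, from 852 to 602 and from 479 to 768. All 6 measured genes of glia and neurons were higher in set 1 and lower in set 2 (medians 0.52 and -0.40; 5 of 6 with quantile normalization), from moody, a receptor of the blood-brain barrier (0.96 and -0.62), to loco (0.02 and -0.03 by its brighter probe set).

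Further tissue lists had the same order of medians. They were 0.44 and -0.30 for mesoderm (8 genes), 0.32 and -0.30 for amnioserosa and dorsal ectoderm (13), 0.22 and -0.31 for trachea, salivary gland and epidermis (11), and 0.25 and -0.39 for late differentiation (8). tup, a LIM homeobox gene of the amnioserosa and heart, went from 109 to 250 and from 159 to 122 (1.10 and -0.34), though by its dimmer probe set from 67.4 to 77.8 and from 68.3 to 46.5. Segment polarity and Hox genes (11) were lower in set 2 (-0.50) and near level in set 1 (-0.06, and 0.05 with quantile normalization). Of these 5 were lower in both sets, as were 14.3% of all probe sets, among them Antp (113 to 67.6 and 52.6 to 35.5) and tsh (438 to 332 and 207 to 137). Endoderm and yolk genes (8) had medians of 0.29 and -0.04 (0.02 with quantile normalization). GATAe, a factor of the gut and the member with an unadjusted p under 0.05, went from 17.5 to 68.6 and from 20.1 to 50.4 (1.14, SE 0.51), with both irradiated arrays above both controls. Hemocyte genes (10) had 0.30, or 0.02 with quantile normalization, and 0.05, or -0.04 with a stricter filter. Germ line genes (11) had -0.01 and -0.00, or -0.26 and 0.10 with quantile normalization. Their set 2 median was -0.37 with the stricter filter (7 genes) and -0.19 with the filter on the mutant arrays (10 genes). Adult ovary and chorion genes (7 of 14 bright enough to test) had 0.23, or -0.04 with quantile normalization, and -0.27.

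**Figure D5:**
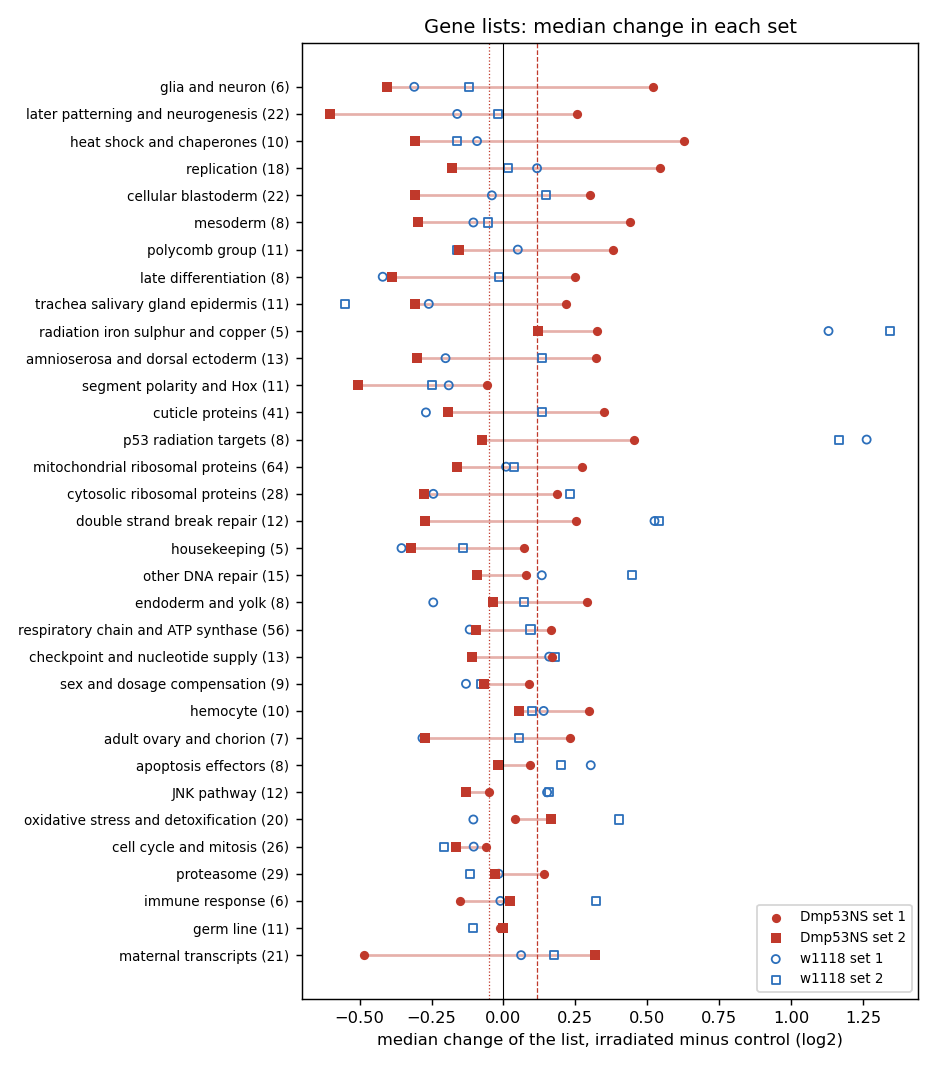
Median change with 40 Gy (log2, horizontal axis) of each gene list with 5 or more measured members (number in brackets): Dmp53NS set 1 as red circles and set 2 as red squares joined by a line, w1118 sets as open blue circles and squares. The dashed and dotted vertical lines are the medians of all probe sets in set 1 (0.12) and set 2 (-0.05). Maternal transcripts have set 1 left of set 2 by the widest gap, and most other lists have it on the right.

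Of 18 DNA replication genes 11 were higher in set 1 and lower in set 2 (61.1%, beside 40.1% of all probe sets). Their medians were 0.54 and -0.18, and 0.61 and -0.18 with quantile normalization. PolA1, the catalytic subunit of polymerase alpha, went from 538 to 1066 and from 911 to 654, and PCNA, the sliding clamp, from 3954 to 6007 and from 6451 to 4406. For PCNA both irradiated arrays lay between the controls, and for PolA1 the groups overlapped as well. The set difference had an unadjusted p under 0.05 for 6 of the 18 (PolA1, RfC4, RfC3, Mcm2, Mcm3 and PCNA), all lower in set 2, against 4.36% of all probe sets. Of the 18, 4 were lower in set 1 and higher in set 2 (22.2%, beside 26.6% of all probe sets). Among them were Orc1 (511 to 493 and 326 to 530) and Caf1-180, a chromatin assembly factor (1382 to 1120 and 470 to 740). Of 26 genes of the cell cycle and mitosis 8 had the one pattern and 7 the other, with medians of -0.06 and -0.17. Those shares were 30.8% and 26.9%, beside 40.1% and 26.6% of all probe sets.

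Ribosomal protein genes of mitochondria (64) had medians of 0.27 and -0.16. Of these 41 were higher in set 1 and lower in set 2 (64.1%, beside 40.1% of all probe sets). An unadjusted p under 0.05 in limma for a lower value in set 2 was reached by 8 of the 64, beside 4.36% of all. mRpL35 went from 294 to 580 and from 537 to 332 (set difference -1.62). mRpL3 was higher in both sets, from 33.4 to 196 and from 110 to 207 (1.48, SE 0.43), as was mRpS34 (115 to 285 and 286 to 358; 0.76). For mRpL3 both irradiated arrays lay above both controls; for mRpS34 the control of set 2 read about the same as the irradiated array of set 1. The cytosolic ribosomal proteins (28) had 25 higher in set 1 and lower in set 2 (89.3%), with medians of 0.19 and -0.28. With quantile normalization only 8 had that pattern, and the medians were 0.02 and -0.01. Their direction thus differed with the normalization, and the reason was not tested. Genes of the respiratory chain and ATP synthase (56) had 0.17 and -0.10, with 31 in that pattern (55.4%); COX4 went from 4746 to 6318 and from 7603 to 5115.

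The proteasome, which degrades tagged proteins, split between its particles. Over 29 genes its medians were 0.14 (-0.00 with a stricter filter) and -0.03 (0.04 with quantile normalization). The 12 subunits of the 20S core, which holds the proteolytic sites, had medians of -0.37 and 0.15: 9 were lower in set 1 and higher in set 2, 2 were lower in both and 1 was higher in both. Of the 14 subunits of the 19S cap, which unfolds the substrates, 11 were higher in set 1 and lower in set 2, with medians of 0.41 and -0.34. Over all probe sets 26.6% were lower in set 1 and higher in set 2, and 40.1% the reverse. Prosalpha5 of the core went from 2559 to 1755 and from 2519 to 3403. Rpn1 of the cap went from 725 to 1183 and from 1418 to 890, and Rpn11, the cap's deubiquitinase, from 463 to 729 and from 1228 to 816. Rpt4 was the cap subunit with the pattern of the core (2189 to 1804 and 2208 to 2570). The core medians kept their signs with quantile normalization (-0.35 and 0.28), as did those of the cap (0.51 and -0.36). In w1118 the core had 0.06 and 0.07 and the cap -0.08 and -0.38. The split into particles was made after the values were seen and was not tested.

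Heat shock and chaperone genes (10) had medians of 0.63 and -0.31, with 8 of 10 higher in set 1 and lower in set 2 (80.0%, beside 40.1% of all probe sets). Hsp68, an inducible chaperone of the Hsp70 family, went from 8.2 to 30.3 in set 1 and from 416 to 30.4 in set 2. Its control array of set 2 stood alone, at 416 against 8.2 to 30.4 on the other mutant arrays (set difference -4.24, SE 1.03, adjusted p = 0.642). DnaJ-1, a co-chaperone, went from 438 to 801 and from 796 to 527, and Hsp60A of mitochondria from 231 to 492 and from 451 to 426. In w1118 the list had -0.09 and -0.16. The control array of set 2 is also the mutant array with the highest eIF-4a 3′ to 5′ ratio (5.92), and any link was not tested. On the irradiated w1118 array of set 2, with a ratio of 12.2, the list's mean log2 level was 8.66, against 8.75 on its control.

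Of the Polycomb group (11 genes, medians 0.38 and -0.16) 2 genes had an unadjusted p under 0.05. Pc, the reader of methylated histone H3, was higher in both sets, from 261 to 457 and from 25.4 to 73.5 (0.96, SE 0.38). Set 1 was bright and set 2 dim for Pc with either treatment, so the groups overlapped. Psc, a subunit of the same complex, was lower in both, from 550 to 421 and from 590 to 222 (-0.86, SE 0.32). E(z), the methyltransferase, went opposite ways (498 to 733 and 770 to 502). Sxl, the switch gene of sex determination, was likewise bright in set 1 (739 and 912) and dim in set 2 (84.9 and 134), and its list (9 genes) had medians of 0.09 and -0.07.

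Cuticle protein genes (41 of 90 bright enough to test) had medians of 0.35 and -0.19. TwdlN went from 517 to 28.5 in set 1 and from 34.3 to 18.6 in set 2 (-3.63 and -0.56; mean -2.09, SE 0.57, adjusted p = 0.9998), so that 1 control array carried the change. It passed when the yw set was left out (adjusted p = 0.00203), and its probe set is of a type whose probes match several related genes. Its second probe set went from 122 to 67.9 and from 97.2 to 51.8. TwdlM went from 475 to 937 and from 1262 to 365 (set difference -2.71). Cpr47Eg was lower in both sets, from 196 to 140 and from 331 to 81.3 (-1.15, SE 0.46).

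The remaining lists had no member with an unadjusted p under 0.05 for the mean of both sets. Oxidative stress and detoxification genes (20) had medians of 0.04 (-0.15 with quantile normalization) and 0.16, immune response genes (6) -0.15 and 0.02, JAK-STAT genes (4) -0.41 and 0.12, and the JNK pathway (12) -0.05 and -0.13. In the JNK pathway puc, the phosphatase that damps it, went from 336 to 156 and from 235 to 248, and Traf6, an adaptor, from 530 to 342 and from 237 to 385. The apoptosis inhibitors Bruce (191 to 199 and 124 to 91.0) and Diap2 (422 to 364 and 504 to 649) moved little and in opposite ways. The early linker histone BigH1 went from 465 to 272 and from 426 to 753, lower in set 1 and higher in set 2. That pattern was shared by 26.6% of all probe sets. His2Av was nearly level (-0.09 and -0.12). Housekeeping genes (5) had 0.07 and -0.32, among them Tbp, the TATA-binding protein (0.27 and -0.58), and Gapdh1 of glycolysis (-0.06 and -0.26). Where no member of a list had an unadjusted p under 0.05, its largest mean changes were named. They included Rad9, a clamp of the damage checkpoint (-1.33 and -0.48), tefu, the fly ATM kinase (-0.30 and -0.51), and Xpd, a repair helicase (0.04 and 0.52). In the cell cycle list thr, a separase partner (-0.38 and -0.36), and Dp, the partner of E2F (-0.40 and -0.41), were lower in both sets by like amounts. Among replication genes Mcm6 (0.63 and 0.16) and PolE1 (0.71 and 0.01) were higher in set 1. The glutathione transferase genes GstD5 (0.95 and 0.17) and GstE3 (0.90 and 0.13) were as well. Yp3, a yolk protein (0.80 and 0.81), and the chorion gene Cp36 (-0.74 and -0.95) each kept one direction at low signals. For these too the adjusted p was 0.9998.

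The response of mutant embryos was also tested against that of WT embryos. Of the 8379 probe sets 1 passed in limma (0.0119%), and 3 (0.0358%) had an adjusted p under 0.10, all lower in the mutant. An unadjusted p under 0.05 was reached by 282 (3.37%), of which 141 (1.68%) were higher and 141 (1.68%) lower in the mutant. The probe set that passed was 141483_at, which the annotation used here gives no gene. Its signal went from 17.7 to 11.4 in set 1 and from 22.5 to 13.2 in set 2, near the bottom of the scale on all 4 arrays. The irradiated WT arrays read 1738, 1324 and 898, and only through them did 141483_at clear the filter on dim probe sets. With the filter on the mutant arrays 0 probe sets passed this test. The mean change of 141483_at in the mutant was -0.37 (SE 0.48), and the difference from WT was -4.74 (SE 0.62, limma adjusted p = 0.00137). Without either mutant set the difference was -4.79 or -4.68 and the call was lost (adjusted p = 0.450 and 0.747). It was also lost with quantile normalization (adjusted p = 0.0821), when dim probe sets were all kept (0.160), with no variance trend (0.149), with no replicate block (0.505) and with a random replicate block (0.180).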

How the data were processed

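Signal intensities of whole-embryo RNA on Affymetrix arrays were deposited by the authors as MAS5 values, per the submitters' processing notes; the version is not stated there. Each array had a 2% trimmed mean near 250, and was rescaled to a common one here. Array controls (44 of 14010 probe sets) were left out, and log2(signal + 14.5) was analysed, 14.5 being the 20th percentile of all values. Probe sets with a mean signal over the 10 arrays above the 40th percentile (53.4) were kept. Limma 3.58.1 in R 4.3.3 (lmFit, eBayes with a trend) fitted each set as a block with a radiation term per genotype (3 residual degrees of freedom, 18.1 prior), and a second model gave each mutant set its own term (2 residual, 7.48 prior). P-values were adjusted by Benjamini-Hochberg and called under 0.05. The procedure was tested on simulated data.

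The pairing comes from the replicate numbers of the labels, and the series' design calls the sets paired biological replicates. The deviations of same-numbered arrays from their group means correlated at 0.43 in the mutant and 0.60 in w1118; with 2 sets a group, both sets give the same value. GEO's annotation of the platform gave 1 symbol for 12443 probe sets, several for 327 and none for 1196, and 7442 of those kept had 1. Genes were named by these rules: the 12 largest increases and 12 largest decreases shared by both sets, ranked by the smaller change; the 8 largest opposite changes of each kind; p53 and its listed targets; list members with an unadjusted p under 0.05, at most 3 a direction, or else the 2 largest mean changes; and any probe set called. Other list members given were picked after their values were seen. Members and lists were chosen with earlier results of these data known, and the proteasome and histone lists were corrected for 2 wrongly matched genes after values were seen. The arrays' number limits the precision. Alternatives covered normalization, pseudocount, filter, variance model, threshold, block and arrays left out.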

Additional observations from a re-analysis of the deposited data

Results flagged for a closer look

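The probe set 141483_at differed between genotypes in its response to radiation, by a direct test: the change in the mutant minus that in WT was -4.74 on the log2 scale (limma adjusted p = 0.00137), lower in 2 of 2 mutant sets than in all 3 WT sets. It cleared the filter on dim probe sets only through the irradiated WT arrays (898 to 1738), and the mutant arrays read 11.4 to 22.5. With the filter on the mutant arrays 0 probe sets were called. The call was lost under 7 of the other settings, with adjusted p-values of 0.0821 to 0.747, among them leaving out either mutant set.

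The median change of the JNK pathway list (12 genes) was below 0 in both mutant sets (-0.05 and -0.13) and above it in w1118 (0.15 and 0.16) and yw (0.0054). The median of the genes' mean changes in the mutant was -0.043. With the stricter filter (10 genes) the mutant medians were -0.009 and -0.013. The difference was not tested.

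The apoptosis inhibitors measured, Bruce and Diap2, had a median below 0 in both mutant sets (-0.08 and -0.02) and above it in w1118 (0.26 and 0.35) and yw (0.10). The median of their mean changes in the mutant was -0.048. The difference was not tested, and the median of set 2 was above 0 with quantile normalization (0.0043) and with the higher pseudocount (0.013).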

How the results depend on the processing

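The count of 0 probe sets called for the mutant response held under every setting tried except with 2 choices of arrays: mutant arrays fitted alone gave 1 (IM33) and leaving out the yw set gave 3 (IM33, TwdlN and 143935_s_at). The set difference gave 0 throughout. The single call for mutant minus WT became 0 with quantile normalization, without the filter on dim probe sets, with the filter on mutant arrays, without a variance trend, with no replicate block and with a random replicate block; it became 2 with robust variance, 3 with the higher pseudocount (46.7), 3 at a threshold of 0.10, 3 without the yw set and 7 with the stricter filter, and ran from 0 to 7 when a set was left out: 7 and 5 without w1118 sets 1 and 2, and 0 without either mutant set. Where it was 0, between 110 and 525 had an unadjusted p under 0.05. The numbers past 1 log2 (higher in both, lower in both, higher then lower, lower then higher) were 39, 25, 69 and 27 with a pseudocount of 1, and 2, 3, 2 and 5 with the higher one. They were 42, 33, 97 and 25 without the filter and 0, 2, 0 and 9 with the stricter one. With quantile normalization 14 were higher then lower. The mean change of BigH1 became -0.044 with quantile normalization. Leaving out either mutant set turned the sign of these genes, whose ranges are the values of the single sets: Appl -0.37 to 0.71, BigH1 -0.74 to 0.80, Bruce -0.39 to 0.052, Corp -0.25 to 0.37, Dark -0.27 to 0.54, Diap2 -0.21 to 0.36, DptB -0.36 to 0.0020, gt -1.49 to 0.031, Ku80 -0.36 to 1.44, moody -0.62 to 0.96, msl-2 -1.51 to 0.20, p53 -0.24 to 0.13, puc -1.04 to 0.074, RnrL -0.10 to 0.57, RpL28 -0.44 to 0.0076, Stat92E -0.52 to 0.24, Su(var)2-10 -0.85 to 0.095, Tbp -0.58 to 0.27, Tl -0.68 to 0.30, tsl -2.19 to 0.79 and tup -0.34 to 1.10. For Ku80 the mutant minus WT difference ran from -1.46 to 0.35. The cause of these shifts was not tested. With 1 control and 1 irradiated collection a set, no set has replicates of its own.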
